A study of Mus musculus with 28 samples.

Results

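A set of 425 chromatin regions of mouse embryonic stem cells, out of 127646 regions measured, carried H2BK120ac in the groups TD and TT, little of it in ED and ET, and little H3K27ac. The members were selected on these values: merged H2BK120ac coverage of 2.5 or more in both TD and TT, below 1 in both ED and ET, H3K27ac below 1 in solvent-treated (EtOH) cells, and no overlap with any of 38087 deposited windows, each 5 kb wide, around transcription start sites (TSS). Of the 101688 regions outside these windows, called distal below, 1539 reached 2.5 in TD and TT, and 527 of those also stayed below 1 in ED and ET. H3K27ac in EtOH then divided the 527 into the 425 members (80.6%) and 102 regions with a value of 1 or more. The same H2BK120ac limits applied inside the TSS windows held for 401 regions.

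All samples were FOXD3-iKO mouse embryonic stem cells (mESCs, cultured cells that can form every tissue of the embryo) grown in L2i medium, and the labels give 24 h as the time of treatment; iKO denotes an inducible knockout. FOXD3 is a forkhead transcription factor of pluripotent cells, depleted here by addition of 4HT and compared with EtOH. H3K27ac in asynchronous cells was measured in 2 EtOH and 2 4HT samples, and H2BK120ac in 12 samples, 3 for each of the codes ED, ET, TD and TT, all of them of the same genotype, medium and treatment time. The labels do not explain these 4 codes, so no treatment is attached to them here, and they do not say whether the FOXD3-iKO cells are 1 clone. Cells sorted by phase of the cell cycle (12 samples) were left aside.

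CUT&Tag tethers a transposase to an antibody-bound mark, and the DNA fragments it tags there are sequenced. H3K27ac, an acetylated lysine of histone H3, is the usual mark of active promoters and active enhancers. H2BK120ac, an acetylated lysine of histone H2B, is also found at active promoters and enhancers; the same lysine can instead carry ubiquitin, a modification of transcribed gene bodies. Enhancers are stretches of DNA away from a promoter to which transcription factors bind and from which they act on genes near or far.

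Each group was deposited as 1 column in which its replicates are merged, so no value below has a replicate spread, and no difference has a p-value. Values are merged coverage scaled to depth (CPM). The most frequent value of a column was taken as 1 fragment. It was 0.412 to 0.445 in the H2BK120ac columns, 0.165 in EtOH and 0.207 in 4HT for H3K27ac. The implied depth per column, in units of 1000000 fragments, then ran from 2.25 (ED and ET) to 6.08 (H3K27ac EtOH). H2BK120ac values as low as 0.25 of the value taken as 1 fragment also occurred, so this unit is an assumption. The depths, fragment numbers and intervals given for H2BK120ac rest on it. With this unit, the limit of 2.5 stood for a pile-up of 6.08 fragments in TD and 6.03 in TT. The limit of 1 stood for 2.25 fragments in ED and in ET. Intervals given below are 95% Clopper-Pearson intervals on the mean coverage of a region divided by the value of 1 fragment, rounded to a whole number. That number is a mean depth and not a count of fragments. The intervals are therefore approximate, and they cover counting error only. As a check of the cell type, the strongest region within 50 kb of each of 10 stem cell marker genes had a median H3K27ac of 3.71 in EtOH, against 0.426 for 7 markers of fibroblast feeder cells, 0.322 for 5 of primitive endoderm and 0.399 for 4 of trophectoderm. The range of the stem cell markers, 0.5355 to 14.94, overlapped those of the feeder (0 to 3.491) and trophectoderm markers (0.2814 to 1.995). The primitive endoderm markers ran from 0.1983 to 0.4642. The 2 regions near Foxd3 itself did not exceed 0.807 in any column, and the nearest member lay 1227335 bp away, so these data do not check the depletion.

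The sequences that could be shown came from RefSeq promoter windows (GRCm38.p6, the same coordinates as mm10), since no other sequence was used here. Although all 425 members lay outside the deposited TSS windows, 11 overlapped 13 of the 32851 RefSeq windows, which run from 250 bases before to 50 bases after an annotated start. Of these windows 8 belonged to 7 genes of long non-coding RNA (lncRNA) and 5 to the protein-coding genes Sbno2, Aqr, Gse1, Eci2 and Rgs12, so that part of the set is distal only with respect to the deposited windows. The 5 sequences below are the bases before the start that lie inside a member, read 5′ to 3′ on the gene's strand; Gm29985 is shown because it is the start found in one of the 15 members with the highest H2BK120ac, and the others, chosen after their sequences were seen, show the range of the set, from a CG-rich start to AT-richer ones. Capitals mark matches to the p53 decamer in Gm29985 (chr2:38988352-38988489, minus strand) and Gm36696 (chr7:72110550-72110727, plus strand), to E-box and AP-1 in Gm36201 (chr17:67629333-67629582, minus strand), to NRF1 in Gse1 (chr8:120537159-120537408, plus strand) and to GATA and ETS in Aqr (chr2:114175340-114175498, minus strand).
Gm29985: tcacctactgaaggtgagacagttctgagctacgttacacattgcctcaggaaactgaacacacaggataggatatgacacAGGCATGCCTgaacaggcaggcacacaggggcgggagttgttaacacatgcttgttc
Gm36696: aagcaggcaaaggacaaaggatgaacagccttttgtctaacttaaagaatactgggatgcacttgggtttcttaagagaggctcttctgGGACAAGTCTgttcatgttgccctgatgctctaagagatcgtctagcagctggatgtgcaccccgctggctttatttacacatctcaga
Gm36201: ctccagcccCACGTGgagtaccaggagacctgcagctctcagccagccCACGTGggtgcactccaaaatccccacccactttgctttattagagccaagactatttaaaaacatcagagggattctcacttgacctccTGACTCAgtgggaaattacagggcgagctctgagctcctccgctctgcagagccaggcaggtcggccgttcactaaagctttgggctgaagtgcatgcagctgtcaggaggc
Gse1: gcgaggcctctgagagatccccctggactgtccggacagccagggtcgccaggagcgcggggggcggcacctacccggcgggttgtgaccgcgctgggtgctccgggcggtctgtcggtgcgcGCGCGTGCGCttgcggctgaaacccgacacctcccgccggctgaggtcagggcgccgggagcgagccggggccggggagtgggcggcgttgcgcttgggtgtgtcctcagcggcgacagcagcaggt
Aqr: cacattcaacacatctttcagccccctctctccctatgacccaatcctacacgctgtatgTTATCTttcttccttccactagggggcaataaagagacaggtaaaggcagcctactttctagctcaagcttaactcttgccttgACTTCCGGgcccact

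The members under these sequences had unlike levels. The member at Gm29985 held 12.4 in TD and 8.93 in TT, while ED was 0.388 and ET 0.445, and its H3K27ac was 0.694 in EtOH and 0.816 in 4HT. At Gm36696 TD was 3.41 and TT 3.05, with 0.111 in ED and no coverage in ET. At Gm36201, whose start lies opposite that of the lncRNA gene Gm52321, TD was 5.17 and TT 3.39, with no coverage in ED and 0.445 in ET. The member at Gse1, which codes for a subunit of a histone deacetylase complex, held 4.35 in TD and 3.78 in TT, and the one at Aqr, which codes for a helicase of the spliceosome, held 4.01 and 4.34. Printed bases of Gse1 held 32 CG pairs and 74.8% G or C; those of Gm36696 held 2 CG pairs and 46.1% G or C.

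A total of 22 motifs were searched on both strands of whole RefSeq windows. Those spelled out were TGANTCA for AP-1, TGACGTCA for CRE, TGTTTAC for forkhead factors, ATGCAAAT for the octamer, GGGTGTGG for KLF, GGGGCGGGG for the GC box, TCAAGGTCA for ESRRB and TTCCNGGAA for STAT. The others were AACCGGTT for GRHL proteins, CCGGAAGT for ETS proteins, CACGTG for the E-box, ACAATG for SOX proteins, CCAAT for NF-Y, GGAATG for TEAD proteins and AGATAA for the GATA family. The p53 core pair, the p53 decamer, the pair of p53 decamers, CArG, the estrogen response element, NRF1 and CTCF were searched by their usual consensus; the pair of decamers contains the single decamer. The p53 decamer, a single unit of the site that p53 binds in pairs, occurred in 2 of the 13 windows, Gm29985 and Gm36696, and in 8.36% of all windows. The p53 core pair and the pair of p53 decamers occurred in 0 of the 13, and in 0.712% and 0.00913% of all windows. NF-Y occurred in 2 of the 13, Aqr and Eci2, and in 37.4% of all windows; its match in Aqr is not in capitals. AP-1 occurred in 3 of the 13 (Rgs12, Gm36201 and Gm52321) and in 7.81% of all windows, and E-box in 2 (Gm36201 and Gm52321) and in 7.15%; the windows of Gm36201 and Gm52321 overlap, so they share matches. GATA, in Aqr and Eci2, occurred in 11.2% of all windows, ETS, in Aqr, in 3.89%, and NRF1, in Gse1, in 4.6%. The forkhead letters occurred in none of the 13 and in 3.65% of all windows. A match is a description of these letters, not a bound site, and 13 windows are too few to set against the whole.

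The values that chose the set are described first. TD ranged from 2.504 to 21.6 with a median of 4.43, and TT from 2.51 to 20.1 with a median of 3.86. ED had a median of 0.445 and ET of 0.473, each the value of about 1 fragment; 110 members had no coverage in ED, 71 none in ET, and 24 none in either. The median pile-up, a mean depth over the region, was 10.8 fragments in TD and 9.31 in TT. With the unit assumed here, the depth of the typical member was therefore low. Both TD and TT reached 5 in 96 members and 10 in 8. H3K27ac in EtOH had a median of 0.319, and 48 members had none. In bulk chromatin, more cells with a mark and more of the mark per cell cannot be told apart.

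**Figure D1:**
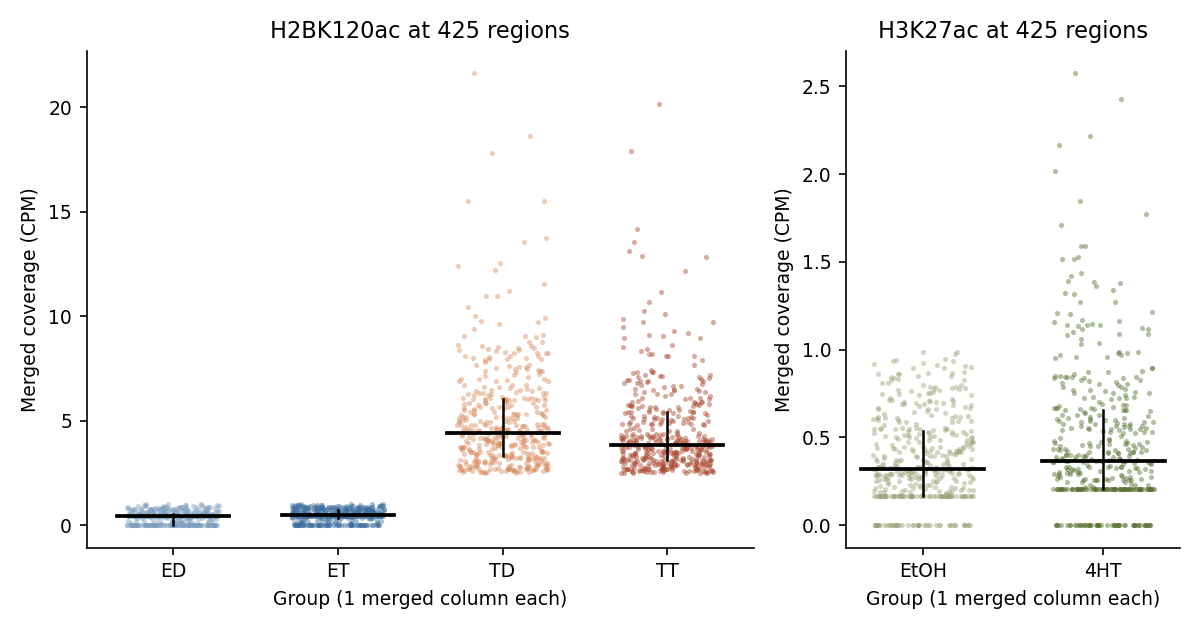
Merged coverage (CPM) of the 425 members in the 4 H2BK120ac groups (left) and the 2 H3K27ac groups (right); each point is a region, the horizontal line the median and the vertical line the middle 50% of regions. The gap between ED or ET and TD or TT follows from the limits of 1 and 2.5 that chose the set, while H3K27ac in 4HT, which the limits did not use, reached 2.57.

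Regions next to the limits show how little separates members from the rest. At the lower limit of TD the members nearest to Mxi1, Kdm4a and Srgap2 held 2.504 to 2.53, and regions just outside, nearest to Gxylt2 and Sema6d, held 2.49. At the limit of TT the members nearest to Sdc1, Hacd4 and Tmem131l held 2.51, and the excluded regions near Atp7a, Rp9 and Vwa3a 2.482 to 2.499. At the limit of ED, Apip, Plekhb2 and Tnip3 lay inside at 0.992 to 0.997 and Btbd11, Gnpat and Thy1 outside at 1.001 to 1.008; at that of ET, Pstk, Irx3 and Vangl1 lay inside at 0.994 to 0.999 and Pdcd6ip, Nat8 and Klhl25 outside at 1.005 to 1.01. At the limit of H3K27ac in EtOH, Golm1, Nmd3 and Mrpl45 lay inside at 0.976 to 0.987 and Tmem44, Itgb4 and Plekhf2 outside at 1.003 to 1.008. All of these steps are smaller than the value of 1 fragment.

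The member with the highest lower value of TD and TT lay inside Dnaja3, the gene of a mitochondrial co-chaperone (chr16:4702670-4702862), at 21.6 in TD and 17.9 in TT, while ED was 0.627 and ET 0.969. Its H3K27ac was 0.253 in EtOH and 0.827 in 4HT. The nearest TSS was that of Nmral1, 16494 bp away, whose promoter held 0.412 in TD and 0.704 in TT, close to its 0.456 in ED and 0.676 in ET. Next came a member inside Agap1, which codes for a regulator of Arf GTPases (chr1:89513366-89513595), at 17.8 in TD and 20.1 in TT, with ED at 0.659 and ET at 0.695. It lay 58555 bp from the TSS of Agap1, whose promoter held 0.388 in TD and 0.911 in TT. Inside Arhgef33, a gene of a guanine nucleotide exchange factor, the member at chr17:80353981-80354180 held 18.6 in TD and 14.2 in TT, against 0.334 and 0.171 in ED and ET. H3K27ac at these 3 members stayed between 0.253 and 0.827 in both EtOH and 4HT.

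Most of the other 12 members among the 15 highest lay inside genes of unrelated roles. Those inside their nearest gene were in Nceh1 (a cholesterol ester hydrolase; TD 11.5, TT 13.5), Setd7 (a lysine methyltransferase; 11.0 and 12.8), Pde10a (a cyclic nucleotide phosphodiesterase; 12.2 and 10.2), Mlana (a melanosome protein; 9.75 and 12.2), Ptp4a3 (a protein tyrosine phosphatase; 9.40 and 9.48), Plekhb2 (12.5 and 9.31), Dut (the dUTPase of nucleotide metabolism; 15.5 and 8.97) and Ptpre (a receptor-type phosphatase; 10.02 and 8.52). Those outside a protein-coding gene lay 393844 bp from Stt3b (13.7 in TD and 13.1 in TT), 142911 bp from Ctnnd2 (15.5 and 11.2), 33294 bp from Siglech (9.93 and 9.74) and 9820 bp from Wdr38, over Gm29985. ED and ET were both without coverage at the Ptpre member. Among the 15, only the Dut member exceeded 1 in H3K27ac 4HT, at 1.59 against 0.700 in EtOH, and the Ptp4a3 member had no H3K27ac in either column.

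TD and TT, both high by the choice of the set, can be compared with each other only as a description. TD exceeded TT in 262 of 425 members (61.6%), against 63.7% of the 102 distal regions with H3K27ac and 62.3% of the 401 in TSS windows. At least 2 times as much TD as TT was found in 17 members (4%), and at least 2 times as much TT as TD in 4 (0.941%); the counts were 2 and 0 among the 102, and 2 and 0 among the 401. Across the 425 members, which were cut at 2.5 in both columns and share the depth of the merged columns, the Spearman correlation between TD and TT was 0.61 and Pearson's r 0.77; the former was 0.71 over the 102 regions with H3K27ac. Between ED and ET, where the values are about 1 fragment, the Spearman correlation was 0.19.

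The counting interval of the ratio of TT to TD lay above 1 in 1 member and below 1 in 4, the rest spanning 1. Counting error alone can leave some of 425 such 95% intervals on either side of 1. The members named here are therefore extremes and not established differences. The member above 1 lay 79841 bp from Tnip3, the gene of an inhibitor of NF-κB signalling, with TT at 12.9 and TD at 4.94, a ratio of 2.61 (1.30 to 5.57). The next highest ratios were at members inside Xrn1, the gene of an exoribonuclease (7.18 in TT and 3.13 in TD), near Picalm inside Gm32164 (6.76 and 2.97), and at a pair of members nearest to Rnf19a, a ubiquitin ligase gene (5.84 and 2.71; 5.02 and 2.72). The lowest ratio was at a member 928 bp wide inside Trp73, which codes for a relative of p53, with TT at 2.70 and TD at 7.53, a ratio of 0.359 (0.138 to 0.983). Members inside Trip12 (2.68 in TT and 7.39 in TD), near Ccdc54 (2.74 and 7.42), inside Hnrnpd (3.21 and 7.98) and inside the recombination gene Rad51b (2.89 and 6.98) followed. Of these 5, the intervals of those in Trp73 and Trip12 and near Ccdc54 lay below 1; the fourth such member lay inside Asap1 (7.02 and 13.6), named after its values were seen.

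**Figure D2:**
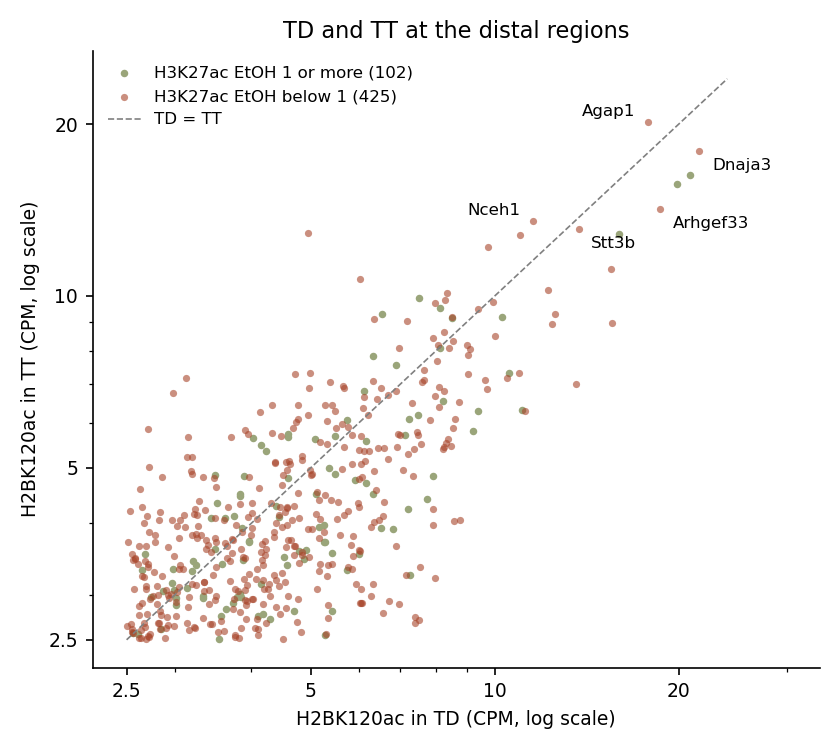
H2BK120ac in TD against TT (CPM, both axes log) for the 425 members and the 102 regions with H3K27ac of 1 or more in EtOH; the dashed line marks equal values and the 5 members with the highest lower value carry the gene they lie in or nearest to. Both kinds of region spread along the line, from 2.5 to 21.6 in TD among the members.

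H3K27ac in 4HT was not used to choose the members, and it was low in most of them. Its median was 0.367, its highest value 2.57, and 56 members had none; 20 (4.71%) had no H3K27ac in either column, against 17.4% of the 93456 other distal regions below 1 in EtOH. A value of 1 or more in 4HT was reached by 45 members (10.6%), against 2.92% of those other regions. The others also more often had no coverage in EtOH (27.9%, against 11.3% of members), so both kinds were compared at like levels in EtOH. Where EtOH lay between 0.5 and 0.75, 28.4% of 81 members and 14.4% of 6394 others reached 1 in 4HT; between 0.75 and 1, 40.9% of 44 members and 39% of 3029 others did; between 0.25 and 0.5, 2.72% of 147 and 2.41% of 22145 did. These differences between kinds of region were not tested.

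**Figure D3:**
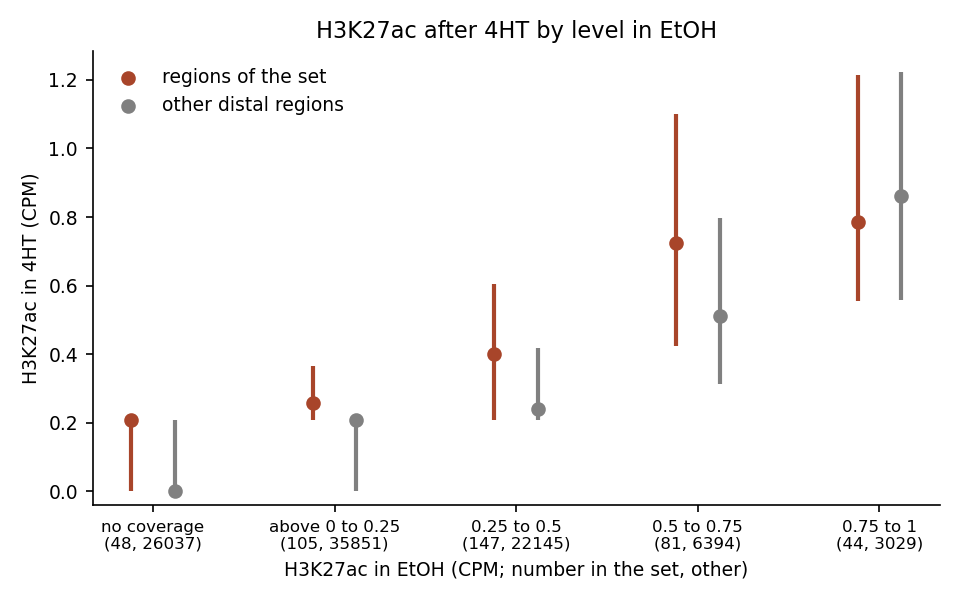
H3K27ac in 4HT (CPM) by the level in EtOH, for members (red) and other distal regions (grey); points are medians, lines the middle 50% of regions, and the numbers under each bin count both kinds. The median in 4HT was 0.723 for members and 0.51 for the others where EtOH was 0.5 to 0.75, and 0.786 against 0.861 where it was 0.75 to 1.

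The change of H3K27ac with 4HT was read as at least 2-fold on log2(value + 0.2), in the 331 members whose mean of both columns reached 0.2. By this size rule 34 members (10.3%) were higher in 4HT and 16 (4.83%) lower, against 6.42% higher and 3.08% lower over all 65565 kept regions, and their median log2 fold was 0.25 against 0.13. Members were chosen to be low in EtOH without use of 4HT, which can by itself favour higher values in 4HT. The size of that effect was not tested. Among the other distal regions below 1 in EtOH, 7.51% were higher and 3.60% lower, with a median of 0.08. With members chosen by a mean of EtOH and 4HT below 1, 26 were higher and 16 lower, with a median of 0.226. The split of 34 and 16 depended on scaling: with both columns centred on their medians 17 were higher and 17 lower, and with quantile normalization 20 and 16, while the median over all kept regions moved from 0.13 to -0.03 and -0.01. With a pseudocount of 1 in place of 0.2, 1 member was higher and 0 lower, so these counts rest on low values. Without the filter, and so over all members, 57 were higher and 28 lower. No share over all regions is given at these other settings, so they do not show whether members differ from the background there. The 102 regions with H3K27ac in EtOH had 7 higher and 0 lower.

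The 5 members with the most H3K27ac in 4HT had a mean depth of few fragments in EtOH. The highest was also the single member on chromosome X (chrX:103449503-103449748), which lay within the RefSeq span of Tsix, the antisense RNA gene that runs opposite Xist at the X inactivation centre, 93100 bp from the TSS of Chic1. It held 2.57 in 4HT and 0.835 in EtOH, a ratio of 3.08 (0.992 to 11.0), with TD at 2.92 and TT at 2.65. The member inside Kat2b, the gene of a histone acetyltransferase, held 2.43 against 0.914, a ratio of 2.66 (0.875 to 8.18). Inside Cep68, a centrosome gene, the member held 2.22 against 0.424, and its ratio of 5.23 (1.22 to 25.8) was the one interval of the set that lay above 1. Counting error alone can leave a 95% interval above 1 when so many are computed. The members near Nmd3, a ribosome export gene (2.17 against 0.985), and Ogdhl, a mitochondrial dehydrogenase gene (2.02 against 0.797), had intervals that spanned 1, and no member had an interval below 1.

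H2BK120ac can be set beside H3K27ac within the set. The 45 members at 1 or more in 4HT had medians of 5.49 in TD and 3.71 in TT, and the 20 without H3K27ac 4.56 and 4.38. Their distances to the nearest TSS differed: the median was 17978 bp for the former and 95171 bp for the latter, and their median widths were 256 bp and 147 bp. Over all 425 members the Spearman correlation between distance and H3K27ac in 4HT was -0.29, and between the lower value of TD and TT and H3K27ac in 4HT it was 0.11, both as descriptions of regions that share their libraries.

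In distance to the nearest TSS the members lay between all distal regions and the regions with H3K27ac. The members had a median width of 230 bp (112 to 1061 bp), near the 233 bp of all distal regions. The 102 regions with H3K27ac had a median of 369 bp. The 5 widest lay inside D7Ertd443e (1061 bp), near Myt1l (1030 bp), near Zadh2 (1006 bp), near Col17a1 (995 bp) and inside Cachd1 (933 bp), and none of these exceeded 5.03 in TD. The nearest TSS was a median of 35147 bp away, against 49148 bp for all distal regions and 17764 bp for the regions with H3K27ac. These distances use a single TSS per gene, so other annotated starts are missed. For example, the member over the RefSeq start of Gse1 was assigned to Gins2, 51532 bp away. Within 10 kb lay 81 members (19.1%, against 13% of all distal regions and 33.3% of those with H3K27ac), and over 50 kb away 168 (39.5%, against 49.5% and 18.6%).

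Of the 425 members, 242 (56.9%) lay within the span of a protein-coding gene, 160 of them within the gene whose TSS was nearest; the shares were 49.4% of all distal regions and 76.5% of those with H3K27ac. A further 39 lay only within the span of an lncRNA or antisense RNA gene, and 144 in neither kind. Exons and introns could not be told apart from the gene spans used here. The members had 386 different nearest genes, 348 of them with 1 member. They joined into 400 loci when those within 1 kb were merged, and into 391 when those within 50 kb were. The densest locus held 3 members inside the lncRNA gene Gm32164, about 70 kb from Picalm, a clathrin assembly gene, with TT at 4.13, 4.63 and 6.76 and TD lower than TT in all 3. These 3 lie close together and can hold the same fragments, so they are no separate measurements. By chromosome, 45 members were on chromosome 8 (10.6% of members, 7.34% of distal regions) and 29 on chromosome 12 (6.82% and 4.33%). Chromosome X had 1 member among its 2243 distal regions (0.235% of members, 2.21% of distal regions).

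H2BK120ac in the surroundings was measured in distal regions that belong to none of the 3 kinds above. Within 1 kb of a member lay 121 such regions, whose mean was 4.08 in TD and 3.53 in TT, with 0.645 for ED and 0.886 for ET. TD was at least 2-fold above ED, on log2(value + 0.4), in 82.9% of the 117 that were kept (mean of the 4 groups 0.4 or more), and TT above ET in 67.5%, against 16.1% and 14.0% of all kept distal regions. These neighbours can hold the same fragments as the members, so they are no separate measurement. At 1 to 5 kb the shares were 34.7% and 28.9% of 121 kept regions, at 5 to 20 kb 18.4% and 18.4% of 358, and at 20 to 50 kb 13.4% and 14.1% of 523. Over all kept distal regions in none of the 3 kinds, which leave out the members, the shares were 14.7% and 12.5%, so that at 20 to 50 kb TD lay below and TT above them. Lower values were more frequent there than higher ones: TD was at least 2-fold below ED in 18.7% of the regions at 20 to 50 kb and TT below ET in 22%, against 23% and 25.6% over all those in none of the 3 kinds. Around the 102 regions with H3K27ac the shares were 36.7% and 26.7% at 1 to 5 kb and 26.1% and 24.8% at 5 to 20 kb; the difference was not tested.

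**Figure D4:**
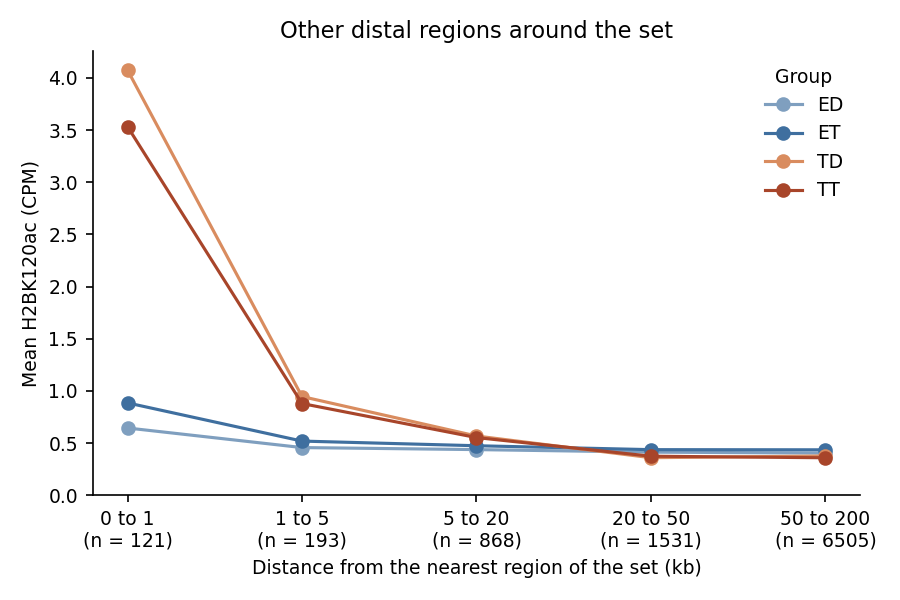
Mean H2BK120ac (CPM) in distal regions around the members, by distance from the nearest member (kb), for the 4 groups; n is the number of regions. TD and TT fell from 4.08 and 3.53 within 1 kb to 0.361 and 0.375 at 20 to 50 kb, where ED and ET were 0.414 and 0.438.

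Promoters of the nearest genes were measured as the regions within 1 kb of the TSS, which the choice of members did not use. Among the nearest genes with a member within 50 kb, 134 promoters were kept; TD was at least 2-fold above ED in 50 (37.3%), TT above ET in 44 (32.8%), and both held in 35 (26.1%). Over all 7118 kept promoters the shares were 23.9%, 22.3% and 12.6%. Where the member lay over 50 kb away, the shares were 20.3%, 11.4% and 5.06% of 79 promoters. For genes nearest to the 102 regions with H3K27ac, both held in 35% of 60 promoters within 50 kb. So most of the 134 promoters did not pass the size rule in both, and none of these differences between shares was tested.

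**Figure D5:**
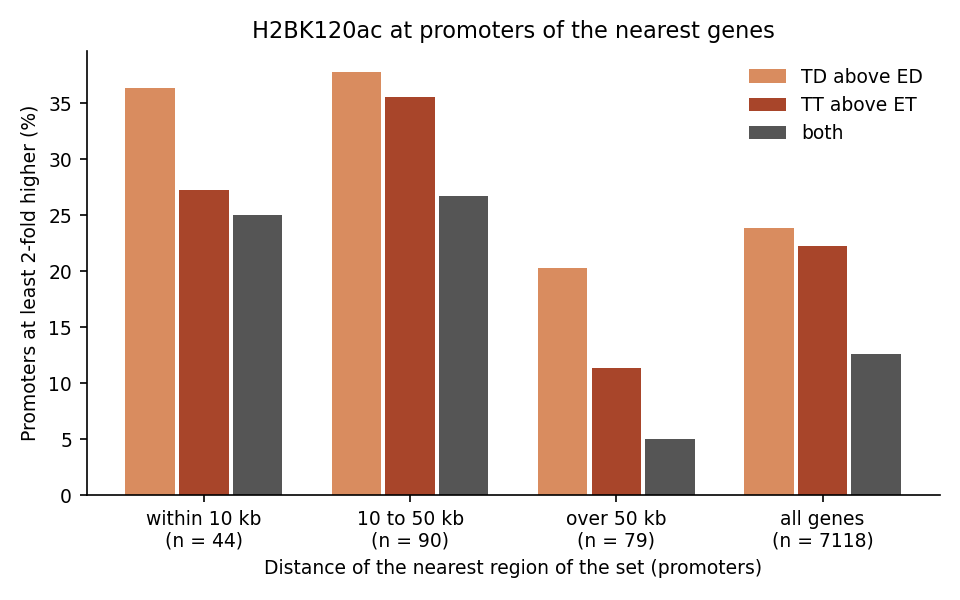
Percent of kept promoters with H2BK120ac at least 2-fold higher in TD than ED, in TT than ET, and in both, for nearest genes by the distance of their member and for all genes; n is the number of promoters. Both held in 25% of 44 promoters within 10 kb, 26.7% of 90 at 10 to 50 kb, 5.06% of 79 beyond 50 kb and 12.6% of all 7118.

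The promoters with the highest lower value of TD and TT among those higher in both, named after their values were seen, are given in that order. At Ctc1, which codes for a telomere maintenance protein, the promoter held 12.9 in TD and 13.1 in TT against 0.992 and 1.27 in ED and ET, with a member 13695 bp away. The promoter of Cdkn1a, the cell cycle inhibitor induced by p53, held 13.6 and 12.3 against 1.25 and 2.31. At Phlda3, a repressor of Akt, it held 7.84 and 8.97 against 0.490 and 1.05. Next came Trim32 (a ubiquitin ligase; 4.76 and 4.85), Nsmaf (an adaptor of sphingomyelinase; 6.12 and 4.75), Usp24 (a deubiquitinase; 4.72 and 4.91), Dhx15 (an RNA helicase; 5.48 and 4.66) and Get3 (membrane protein insertion; 6.46 and 4.53, with a member 3261 bp away).

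The lists of genes set beside the members covered 15 topics and 215 genes, 208 with a TSS. A listed gene was the nearest for 7 members (1.65%), against 2.34% of all distal regions and 6.86% of those with H3K27ac. All 7 lay within 50 kb; with that limit the shares were 1.06% of all distal regions and 5.88% of those with H3K27ac, so the order of members and distal regions turned with the limit on distance. They fell on 3 lists: 4 on p53 targets, 2 on targets of YAP and TEAD, and 1 on primitive endoderm genes. At any distance the YAP and TEAD targets took 0.471% of members and 0.15% of all distal regions, and the primitive endoderm genes 0.235% and 0.158%. No member was nearest to a gene of the other 12 lists, which were AP-1 and immediate early genes, SRF and cytoskeleton genes, TGF-beta and SMAD targets, retinoid targets, epithelial genes, forkhead genes, general, naive, and formative or primed pluripotency, mesendoderm, neuroectoderm and trophectoderm. Each of these 12 took between 0.0531% and 0.436% of all distal regions, where a single member makes 0.235% of the set. A count of 0 is therefore near the background for each list alone. The joint share of the 12 lists is larger and was not computed, so this is not shown for the 12 together. The p53 targets made up 0.941% of members, 2.94% of the distal regions with H3K27ac, 3.99% of the 401 regions in TSS windows and 0.267% of all distal regions. The p53 list was chosen with the H2BK120ac of its genes in these samples known, so these counts are not independent evidence.

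By the lower value of TD and TT, the 4 members near p53 targets ranked 65, 89, 293 and 396 among the 425. Near Pmaip1, a pro-apoptotic gene, the member lay 10911 bp from the TSS and held 6.999 in TD and 5.70 in TT, with ED at 0.222 and ET at 0.720, and with no H3K27ac in EtOH and 0.329 in 4HT. Near Phlda3 (chr1:135760295-135760516), 5569 bp from the TSS, it held 5.31 and 5.50 against 0.633 and 0.445. Inside Zmat3, which codes for an RNA-binding zinc finger protein, a member 23773 bp from the TSS held 3.34 and 3.04 against 0.826 and 0.709, and its H3K27ac was 0.529 in EtOH and 1.34 in 4HT. Inside Cdkn1a, the member at chr17:29095474-29095621 held 3.16 and 2.61, with no coverage in ED and 0.111 in ET. It lay beside a distal region with H3K27ac (chr17:29093528-29093872) that held 15.9 in TD and 12.8 in TT, with H3K27ac of 1.13 in EtOH and 1.68 in 4HT.

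The other 3 listed members ranked 354, 358 and 386. Near Ccn1, a secreted matrix protein gene induced by YAP, a member 6672 bp from the TSS held 2.71 in TD and 3.36 in TT, against 0.639 and 0.968 in ED and ET, and the promoter held 3.85 and 3.85 against 0.821 and 1.003. Inside Arhgef17, a guanine nucleotide exchange factor gene, the member held 3.23 and 2.62 against 0.445 and 0.334. The Arhgef17 promoter held 0.331 in TD and 0.415 in TT, below its 0.445 in ED and 0.561 in ET. Near Lamb1, a laminin gene, the member held 3.92 and 2.72 with no coverage in ED or ET. The Lamb1 promoter held 1.14 in TD against 0.0556 in ED, but 0.415 in TT against 0.644 in ET.

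The opposite pattern was counted at the same limits. Regions outside TSS windows with ED and ET of 2.5 or more and TD and TT below 1 numbered 339, of which 77 had H3K27ac below 1 in EtOH, against 527 and 425 for the pattern of the members. This order holds for these limits: among the kept distal regions in none of the 3 kinds, TD was at least 2-fold below ED in 23% and above it in 14.7%, and TT below ET in 25.6% and above it in 12.5%. ED and ET had slightly less depth than TD and TT. Yet fewer of all regions lacked coverage in ED and ET (38.7% in each) than in TD (48.2%) and TT (47.5%). The role of depth and of this spread of coverage in these counts was not tested.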

How the data were processed

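H3K27ac and H2BK120ac were measured by CUT&Tag in asynchronous cells. For 127646 regions the authors deposited coverage signal, named CPM in the tables, and the authors merged the replicates into 1 column per group. The build was mm10, per the submitters' processing notes; for the aligner and coverage software, not given in the sources used here. No deposited value was 0, so a region's mean may skip bases without coverage, in which case sparsely covered regions read too high. But H2BK120ac values went down to 0.25 of the value taken as 1 fragment. A mean that skips such bases could not fall below 1 fragment, so this account or that unit may be wrong. Missing values were counted as 0. A further 16 value columns, in 2 tables, match no sample and were not used; only the positions of the TSS windows came from them, so background was not examined.

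The most frequent value in each column was taken to be 1 fragment. Where replicates would have been tested with limma, the merged columns left only a size rule: at least 2-fold on log2(value + pseudocount), with a pseudocount of 0.4 for H2BK120ac and 0.2 for H3K27ac (25th percentile of values above 0, rounded), in regions whose mean reached it (44136 and 65565). The rule was tested on simulated pile-ups only at a coverage above the H3K27ac of the members, so that test does not cover their H3K27ac calls. Of 21887 protein-coding RefSeq genes, 20487 had a span end within 5 kb of the centre of a TSS window, taken as TSS. Named are the 15 members highest in the lower of TD and TT, the 5 highest in H3K27ac 4HT, the 5 extremes of the ratio of TT to TD at each end, 3 regions on each side of each limit, the 5 widest, the densest locus and members near listed genes; 1 region beside a limit is not reported here. Members, limits and lists were chosen with earlier results of these data known. Alternatives covered the limits, scaling, pseudocount and filter. Python 3.11.15, pandas 2.3.3, numpy 2.4.6 and scipy 1.17.1 were used.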

Additional observations from a re-analysis of the deposited data

How the results depend on the processing

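The number of members, 425, fell to 213 with TD and TT of 3.5 or more, to 173 with ED and ET below 0.5 and to 268 when regions without coverage in ED or ET were left out. It stayed within 1.5 times under the 4 others: 626 with TD and TT of 2 or more, 300 with H3K27ac EtOH below 0.5, 344 at least 10 kb from a TSS and, an alternative chosen after seeing the data, 414 without members over a RefSeq promoter window. The number of members at least 2-fold higher in H3K27ac 4HT, 34, became 17 with median centring, 20 with quantile normalization, 1 with a pseudocount of 1 and 57 without a filter on low values; the number lower, 16, became 0 with a pseudocount of 1 and 28 without a filter. The counts under these alternatives were not set against shares over all regions at the same settings. The median log2 fold of 0.25 became 0.10 with median centring and 0.11 with a pseudocount of 1, and no alternative reversed it. A larger pseudocount shrinks low values by construction; the cause of the other shifts was not tested. The count of 7 members near listed genes was 7 within 50 kb. No paired analysis was possible because the replicates are merged into 1 column per group, and for the same reason no replicate could be left out. The planned motif searches in windows centred on the members, of either length, and in the regions as deposited were not run, since no genome sequence was used here. The implied depth was 2.25 to 2.43 in the H2BK120ac columns, in units of 1000000 fragments. With the most frequent value taken as 1 fragment, the median member had a mean depth of about 10.8 fragments in TD. Such a depth limits every ratio within the set.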
